A study of Mus musculus with 4 samples.

Results

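The genes described here carry the IGF, FGF and HGF signals of muscle: the ligands Igf1 and Hgf, the receptors Igf1r, Insr, Fgfr1, Fgfr4 and Met, the co-receptor Sdc4, the IGF binding protein Igfbp5 and the RNA-binding protein Igf2bp2. All 10 genes were found in the GENCODE M1 annotation, and the peaks of each were those between 50 kb upstream of its start and 50 kb past its end. These windows held 48 of the 25775 peaks of the WT list and 12 of the 3836 peaks of the Tet2 KO list.

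The peaks came from ATAC-seq, in which the transposase Tn5 cuts open chromatin and leaves sequencing adapters in it. Peaks are intervals with more sequenced fragments than the DNA around them. Satellite cells were sorted from hindlimb muscle of C57BL/6 mice by surface markers (CD45-, CD11b-, CD31-, Sca1-, CD34+, integrin alpha 7+), grown as myoblasts for 3 days and used at 5000 cells per library. The study made 2 WT and 2 Tet2 KO libraries, and the values below rest on 1 peak list per genotype. WT cells carried unaltered Tet2. Tet2 KO cells came from mice in which exon 3 of Tet2 was deleted by homologous recombination, so the loss was not limited to muscle. Peak lists hold no read coverage of that exon, and the deletion was not checked here. Neither list could be tied to a replicate, so the genotypes were compared without a test, and peaks were not treated as replicates. A library pools many cells, so fewer cells with an open site and a less open site in each cell cannot be told apart.

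MACS2 numbers the peaks it calls, and both lists skip numbers (9707 in WT, 4403 in Tet2 KO). A site with no listed peak may therefore have had a called peak that was left out of the list. Of 8 markers of myoblasts and satellite cells, Myod1, Des and Chrna1 had a promoter peak in both lists, and the other 5, Pax7 and Myf5 among them, had a promoter peak in neither. No promoter of 3 blood cell markers, 2 fibro-adipogenic markers or 2 Schwann cell markers had a peak in either list. Of 3 endothelial markers, Pecam1 alone had a promoter peak, in WT. In the 50 kb windows used for the genes below, WT peaks lay near 7 of the 8 myoblast markers, 3 of 3 blood, 3 of 3 endothelial, 0 of 2 fibro-adipogenic and 1 of 2 Schwann cell markers. Tet2 KO peaks lay near 6, 2, 2, 0 and 1 of them in the same order.

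Satellite cells are the stem cells of skeletal muscle, and after injury they divide as myoblasts before they fuse into fibres. HGF is held in an inactive form in the matrix around muscle fibres and, once activated, binds MET and helps quiescent satellite cells to enter the cell cycle. FGFs bind FGF receptors together with heparan sulfate chains and sustain proliferation, while IGF1 and insulin act through the related receptors IGF1R and INSR to drive growth, proliferation and later differentiation. Tet2 oxidises methylated cytosine in CpG dinucleotides, a step toward the loss of DNA methylation, and MyoD, the factor that sets muscle fate, binds E boxes such as CAGCTG.

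Sequences of 7 WT peaks follow, each the summit base with 100 bases on either side, read from the NCBIM37 (mm9) reference on the strand of the gene. The first 6 overlapped a Tet2 KO peak and differ in motifs and CpG content. The WT peaks listed in both genotypes at Igf1r and 37.6 kb from the Fgfr4 start held none of the motifs marked below. The same holds for the one at another gene's promoter in the Igf2bp2 window. These peaks are not shown. Peaks listed in both genotypes 44.7 kb upstream of Fgfr4, 55 kb into Igf2bp2 and 57.4 kb from the Sdc4 start are also left out. They held AP-1 matches and no other marked motif. Of the 12 WT peaks listed in both genotypes, 4 held CAGCTG, all shown, and 6 held the AP-1 site. The Met sequence is that of the strongest peak at a receptor without any listed Tet2 KO peak. Capitals mark CAGCTG and CAGGTG (E boxes), TGANTCA (the AP-1 site), TGTGGT (RUNX) and GGAATG (TEAD) on either strand, so that a site on the other strand shows its reverse complement.
Fgfr1 upstream peak, plus strand, chr8:26576109-26576309: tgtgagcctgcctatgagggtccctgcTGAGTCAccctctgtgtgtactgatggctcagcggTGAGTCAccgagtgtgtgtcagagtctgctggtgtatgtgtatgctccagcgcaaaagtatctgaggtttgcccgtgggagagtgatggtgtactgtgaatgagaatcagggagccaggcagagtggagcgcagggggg
Insr intron peak nearer the start, minus strand, chr8:3247184-3247384: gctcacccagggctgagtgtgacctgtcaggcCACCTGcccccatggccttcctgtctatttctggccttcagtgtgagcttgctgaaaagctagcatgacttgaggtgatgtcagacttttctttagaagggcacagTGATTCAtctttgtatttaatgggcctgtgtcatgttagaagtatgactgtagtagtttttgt
Insr intron peak farther from the start, minus strand, chr8:3221121-3221321: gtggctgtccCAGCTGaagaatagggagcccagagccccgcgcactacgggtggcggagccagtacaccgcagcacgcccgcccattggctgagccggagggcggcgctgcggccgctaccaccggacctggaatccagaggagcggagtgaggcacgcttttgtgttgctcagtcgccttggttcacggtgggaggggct
Fgfr4 downstream peak, plus strand, chr13:55272964-55273164: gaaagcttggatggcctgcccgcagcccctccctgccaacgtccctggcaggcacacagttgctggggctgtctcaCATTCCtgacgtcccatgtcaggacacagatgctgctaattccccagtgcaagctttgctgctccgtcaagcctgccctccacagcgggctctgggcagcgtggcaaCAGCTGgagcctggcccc
Sdc4 intron peak, minus strand, chr2:164266686-164266886: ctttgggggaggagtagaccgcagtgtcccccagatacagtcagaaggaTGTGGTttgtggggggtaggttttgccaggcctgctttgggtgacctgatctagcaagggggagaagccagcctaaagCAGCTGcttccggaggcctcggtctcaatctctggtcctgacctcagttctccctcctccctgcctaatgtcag
Igf2bp2 intron peak, minus strand, chr16:22067650-22067850: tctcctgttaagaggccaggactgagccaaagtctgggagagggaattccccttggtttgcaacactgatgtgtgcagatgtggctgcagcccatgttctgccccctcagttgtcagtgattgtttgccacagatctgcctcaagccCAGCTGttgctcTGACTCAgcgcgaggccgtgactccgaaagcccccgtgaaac
Met intron peak, plus strand, chr6:17428926-17429126: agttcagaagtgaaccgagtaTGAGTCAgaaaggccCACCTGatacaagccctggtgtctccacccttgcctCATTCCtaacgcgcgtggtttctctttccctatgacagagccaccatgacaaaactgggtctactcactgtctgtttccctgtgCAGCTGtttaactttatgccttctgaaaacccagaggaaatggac

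The Fgfr1 sequence held 2 AP-1 matches and no E box match. The Insr sequence nearer the start held CAGGTG and an AP-1 match and no CpG, while the one farther from the start held 17 CpG and a CAGCTG. At that Insr peak the CAGCTG lay 22 bases from the closest CpG, at Fgfr4 6 bases, at Sdc4 4 bases and at Igf2bp2 14 bases. The Met sequence held 4 kinds of match, AP-1, CAGGTG, TEAD and CAGCTG, with the CAGCTG 69 bases from the closest CpG. A match describes the letters only and does not show that a factor was bound.

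WT peaks were listed in the windows of 8 of the 10 genes, and Tet2 KO peaks in those of 6. Igf1r had 11 WT peaks and 1 Tet2 KO peak, Met 8 and 0, Fgfr4 7 and 3, Fgfr1 6 and 1, Igf2bp2 5 and 3, Sdc4 5 and 2, Insr 4 and 2, and Igf1 2 and 0. Hgf and Igfbp5 had no peak in either list. The same windows around all 22208 protein-coding genes held a WT peak in 74.3% and a Tet2 KO peak in 31.4%. The windows of the 10 genes were longer, with a median of 172 kb against 116 kb, and held a median of 5 WT peaks against 2. A WT peak lay at a promoter (1000 bp upstream to 100 bp downstream of any annotated transcript start) of 3 of the 10 genes, Insr, Fgfr1 and Sdc4, beside 30.4% of all genes. No promoter of the 10 genes held a Tet2 KO peak, beside 7.96% of all genes.

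**Figure D1:**
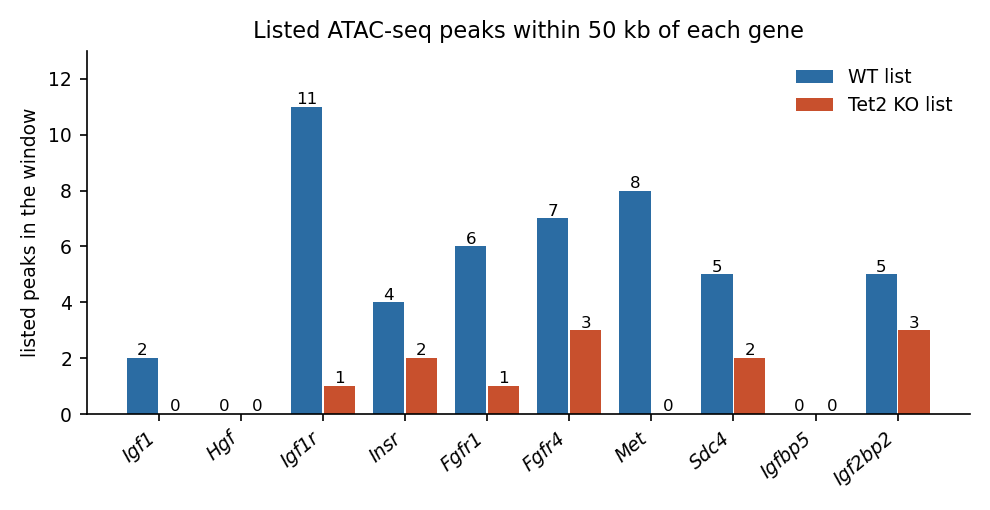
Number of listed ATAC-seq peaks (y axis) in the window of each gene (x axis, from 50 kb upstream of the start to 50 kb past the end), with blue bars for the WT list and orange bars for the Tet2 KO list. Igf1r had the most WT peaks (11), Fgfr4 and Igf2bp2 had 3 Tet2 KO peaks each, Met had 8 WT peaks and no Tet2 KO peak, and Hgf and Igfbp5 had none in either list.

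Of the 48 WT peaks, 12 overlapped a Tet2 KO peak by at least 1 bp (25%, Wilson 95% interval 14.9 to 38.8), beside 14.1% of the whole WT list. In introns and intergenic sequence the count was 11 of 39 (28.2%, 16.5 to 43.8) beside 11% of such WT peaks in the list. At promoters it was 1 of 8 (12.5%, 2.24 to 47.1) beside 22.5%. Each of the 12 Tet2 KO peaks overlapped a WT peak, as did 96.8% of all Tet2 KO peaks. The intervals cover counting error only, and leaving out the window of Igf2bp2 lowered the share from 25% to 20.9%. When peaks were kept only at a -log10 q of 10 or more in both lists, the share was 3.45% (1 of 29) beside 3.41% of the list.

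The overlap followed the strength of the WT peak. Fold enrichment is the number of fragments at the summit over that in the local background of the same library, each plus 1. Folds of the 2 lists are not like for like, because the background differs. A summit of 12 fragments had a fold of 7.88 at an Igf1 peak in WT (local background 0.65). The same number had a fold of 5.39 at an Insr peak in Tet2 KO (local background 1.41). Below a fold of 7, 0 of 15 WT peaks overlapped a Tet2 KO peak, beside 2.22% of such peaks in the list, with an interval of 0 to 20.4%. From 7 to 9 the count was 2 of 15 (13.3%, 3.74 to 37.9) beside 7.47%. From 9 to 11 it was 5 of 10 (50%, 23.7 to 76.3) beside 20.5%, the only class whose interval lay above the share of the list. At 11 or more it was 5 of 8 (62.5%, 30.6 to 86.3) beside 46.4%. The median fold of the WT peaks was 10.7 with a Tet2 KO peak and 7.47 without, close to the 10.97 and 7.57 of the whole list.

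**Figure D2:**
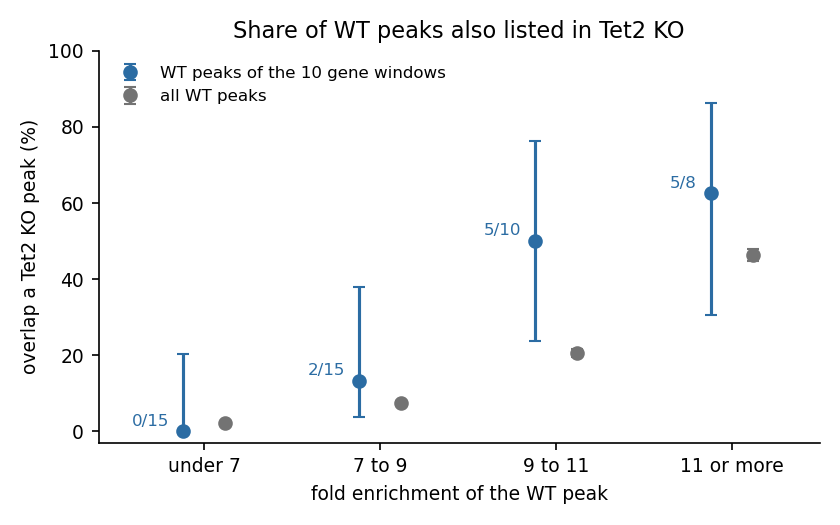
Share of WT peaks with an overlapping Tet2 KO peak (y axis, %) in 4 classes of WT fold enrichment (x axis), blue for the WT peaks of the 10 gene windows and grey for all WT peaks, with Wilson 95% intervals as bars. The share at the 10 genes went from 0 of 15 below a fold of 7 to 5 of 8 at a fold of 11 or more, and the share of the list went from 2.22% to 46.4%.

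By place, 25 of the 48 WT peaks lay in an intron of the gene itself, 10 downstream, 4 upstream, 4 at a promoter of the gene, 4 at a promoter of another gene and 1 in an exon. Introns of any gene held 58.3% of the 48 WT peaks (44.3 to 71.2) beside 36.3% of the list, and promoters of any gene 16.7% (8.70 to 29.6) beside 27.3%. The windows were drawn around genes of up to 274 kb (Igf1r), while the list covers the whole genome. These shares are therefore not like for like, and the effect of gene length on them was not tested. Of the peaks listed in both genotypes, 6 lay in an intron of the gene, 3 downstream, 2 upstream and 1 at the promoter of another gene.

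**Figure D3:**
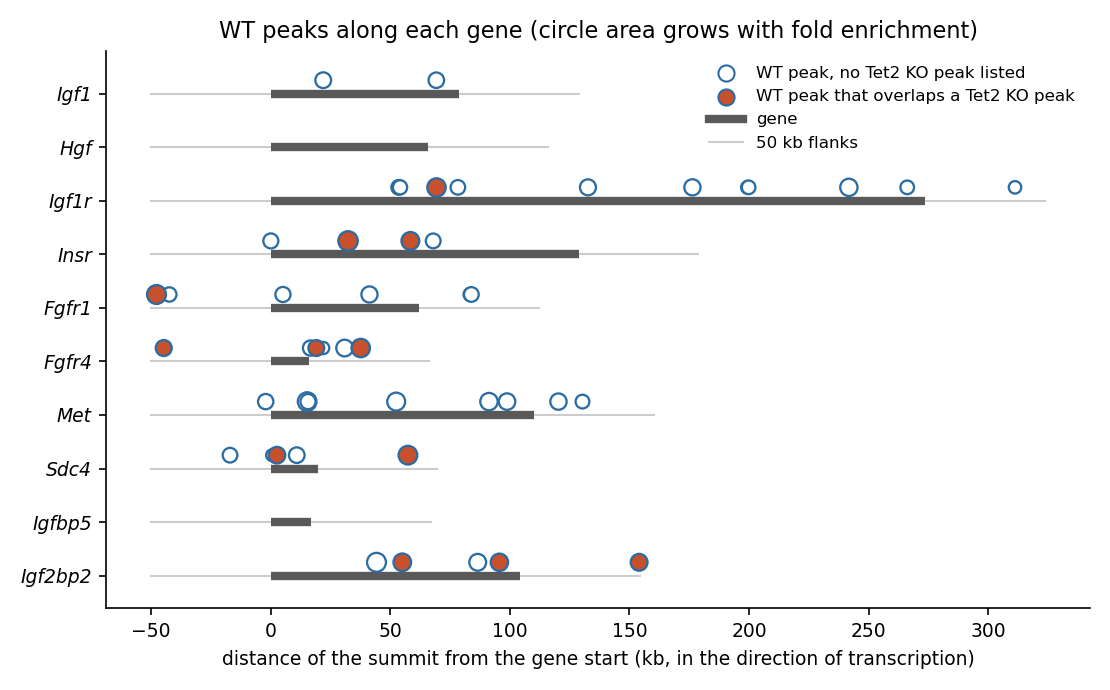
Summits of the 48 WT peaks along each gene, with distance from the gene start in kb on the x axis, the gene as a dark bar and its 50 kb flanks as a thin line. Filled circles overlap a Tet2 KO peak and open circles do not, and circle area grows with fold enrichment. The 5 peaks inside Met are all open circles, and those of Fgfr4 lie outside the gene.

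Of the ligands, Igf1 (chr10:87321010-87399792, plus strand) encodes the growth factor that muscle makes for its own growth and repair. Its 2 WT peaks lay in introns, 21.9 and 69.2 kb from the start, at chr10:87342860-87343026 and chr10:87390113-87390338. The stronger had a fold of 8.19, a -log10 q of 10.03 and 13 fragments at the summit, and the other a fold of 7.88 with 12 fragments. Both were near the median fold of all WT peaks (7.89), and neither overlapped a Tet2 KO peak. Hgf (chr5:16059368-16125257, plus strand), which encodes the ligand of MET, had no listed peak, and the closest WT peaks lay 33.3 kb before the window and 579 kb past it. Between the Tet2 KO peaks that flank the Hgf window the list skips 7 numbers over 5344 kb.

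Among the receptors, Igf1r (chr7:75097713-75371484, plus strand), the main receptor of IGF1, had 10 WT peaks in its introns and 1 downstream, and none at its promoter. Their folds went from 4.63 to 11.7 with a median of 6.82. The strongest, 69.1 kb into the gene at chr7:75166684-75167017, had a fold of 11.7, a -log10 q of 22.4 and 28 fragments, and it was the only one that overlapped a Tet2 KO peak (chr7:75166755-75166891, fold 6.10, 15 fragments). The summits of that pair were 5 bp apart. The next strongest WT peak, at 241.7 kb with a fold of 10.2, held 3 CAGCTG sites and had no listed Tet2 KO peak.

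Insr (chr8:3150922-3279617, minus strand), the insulin receptor, had 4 WT peaks, of which 1 lay at the promoter (chr8:3279501-3279671, fold 7.29, 13 fragments), 1 in an exon and 2 in introns. The intron peak 32.3 kb into the gene (chr8:3247115-3247471) had a fold of 13.2, the highest of the 48, with 29 fragments. The Tet2 KO peak there (chr8:3247239-3247482) had a fold of 5.39 and 12 fragments, with its summit 141 bp from that of WT. The intron peak at 58.4 kb (chr8:3221035-3221320) had a fold of 10.8 and 21 fragments in WT. Its Tet2 KO peak (chr8:3221046-3221275) had a fold of 6.43 and 16 fragments. Thus both intron peaks were listed in Tet2 KO, while the promoter and exon peaks, which were weaker in WT, were not.

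Fgfr1 (chr8:26624126-26686186, plus strand), an FGF receptor of proliferating myoblasts, has 2 overlapping gene records in the annotation, which were joined. It had 2 WT peaks upstream, 2 at annotated transcript starts within the gene and 2 at promoters of other genes downstream. The peak at the start 5.1 kb into the gene (chr8:26629142-26629292) had a fold of 7.46 and 16 fragments, and that at 41.3 kb (chr8:26665302-26665551) a fold of 8.66 and 21 fragments. Neither overlapped a Tet2 KO peak. The peak 47.9 kb upstream (chr8:26576051-26576355) had a fold of 12.4, a -log10 q of 24.0 and 29 fragments. The Tet2 KO peak over it (chr8:26576104-26576312) was the strongest of the 12, with a fold of 7.27, a -log10 q of 10.2 and 21 fragments. It lies near the edge of the window, and with 10 kb upstream in place of 50 kb Fgfr1 had no Tet2 KO peak.

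Fgfr4 (chr13:55254001-55270120, plus strand), an FGF receptor expressed in differentiating muscle cells, had 6.03 WT peaks per 100 kb, a density higher than that of 95.1% of protein-coding genes. None of its 7 WT peaks lay in the gene. A cluster of 4 lay 16.6 to 21.9 kb from the start, past the end of the gene, and another 2 at 30.9 and 37.6 kb. In the cluster the local background was 2.85 to 3.94 fragments, which lowers a fold at a given height. The highest summit of the 48 WT peaks was there (chr13:55272896-55273226), with 40 fragments, a fold of 8.30 and a -log10 q of 22.5. Its Tet2 KO peak (chr13:55272908-55273196) had 17 fragments and a fold of 5.02. The WT peak with the highest -log10 q at Fgfr4 (22.9) lay 37.6 kb from the start (chr13:55291444-55291901, fold 11.7, 29 fragments). The Tet2 KO peak over it (chr13:55291652-55291906, fold 5.54, 13 fragments) had its summit 236 bp away, the widest gap of the 12 pairs. The closest coding start to that pair was that of Nsd1, 19514 bp from the WT summit. The upstream pair, 44.7 kb before the start, had a fold of 8.45 with 17 fragments in WT (chr13:55209199-55209416) and 5.03 with 11 fragments in Tet2 KO (chr13:55209221-55209399), and the closest coding start was 2506 bp away, at Zfp346. When only peaks with Fgfr4 as the closest coding start were kept, 5 WT peaks and 1 Tet2 KO peak were left. At 10 kb upstream and nothing downstream, Fgfr4 had no peak in either list.

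Met (chr6:17413800-17523980, plus strand), the receptor of HGF, had 8 WT peaks and no listed Tet2 KO peak. There were 5 in introns, 2 downstream and 1 upstream, 2.1 kb before the start. The folds of the intron peaks were 12, 7.49, 11.01, 10.3 and 9.14 in the direction of transcription. The strongest (chr6:17428930-17429178) had a -log10 q of 21.7 and 26 fragments. Across the 10 genes, 18 WT peaks had a fold of 9 or more, and 8 of these overlapped no Tet2 KO peak, with 4 at Met, 2 at Igf2bp2, 1 at Igf1r and 1 at Fgfr4. These 8 were 44.4% of the 18, beside 68.3% without an overlap among all WT peaks of that fold, so a strong WT peak outside the Tet2 KO list was the more frequent case in the list. The median fold at Met was 9.01, above the 8.24 of the 48 WT peaks. Between the Tet2 KO peaks that flank the Met window the list skips 7 numbers over 3954 kb, so peaks called but not listed could lie in it. The nearest listed Tet2 KO peak lay 7.77 kb past the end of the window.

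Sdc4 (chr2:164249747-164269387, minus strand), a transmembrane heparan sulfate proteoglycan that serves as a co-receptor of FGFs and marks satellite cells, had 5 WT peaks. The promoter peak (chr2:164268743-164268842) was weak, with a fold of 4.10 and 12 fragments. An intron peak 2.6 kb from the start (chr2:164266592-164267017) had a fold of 9.34 and 30 fragments, and its Tet2 KO peak (chr2:164266724-164266979) a fold of 4.66 and 13 fragments. The strongest, 57.4 kb from the start and past the end of the gene (chr2:164211769-164212334), had a fold of 12.1, 37 fragments and the highest -log10 q of the 48 (28.2). Its Tet2 KO peak (chr2:164211766-164212171) had a fold of 5.62 and 16 fragments. The closest coding start to that pair was that of Slpi, 2816 bp away. In both pairs the summits were no more than 7 bp apart.

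Igfbp5 (chr1:72904506-72921458, minus strand), which encodes an IGF binding protein made by muscle cells, had no peak in either list. The closest WT peaks lay 9.16 kb before the window and 27.0 kb past it. Between the peaks that flank the window, each list skips 1 number.

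Igf2bp2 (chr16:22059082-22163372, minus strand), which encodes an mRNA-binding protein of proliferating myoblasts, had the highest median WT fold of the 10 genes, 10.3 over 5 peaks. It had 4 in introns and none at its promoter. The strongest, 44.2 kb into the gene (chr16:22118971-22119286), had a fold of 12.4, a -log10 q of 22.3 and 26 fragments, and the Tet2 KO list had nothing there. The intron peaks at 55 and 95.6 kb overlapped one. That at 55 kb had a fold of 10.6 and 21 fragments in WT (chr16:22108230-22108531) and a fold of 6.61 and 15 fragments in Tet2 KO (chr16:22108329-22108518). That at 95.6 kb had 10.3 and 26 in WT (chr16:22067510-22067852) and 4.59 and 12 in Tet2 KO (chr16:22067666-22067778). The other pair lay at the promoter of Senp2, a SUMO protease gene 154 kb from the Igf2bp2 start, with a fold of 9.55 in WT (chr16:22009247-22009573, 18 fragments) and 5.26 in Tet2 KO (chr16:22009359-22009514, 12 fragments). So the strongest Igf2bp2 peak in WT was absent from the Tet2 KO list, and weaker ones were present. Among all WT peaks with a fold of 11 or more, 46.4% overlapped a Tet2 KO peak, so absence was the more frequent case. Between the Tet2 KO peaks that flank the Igf2bp2 window the list skips 3 numbers over 1095 kb.

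**Figure D4:**
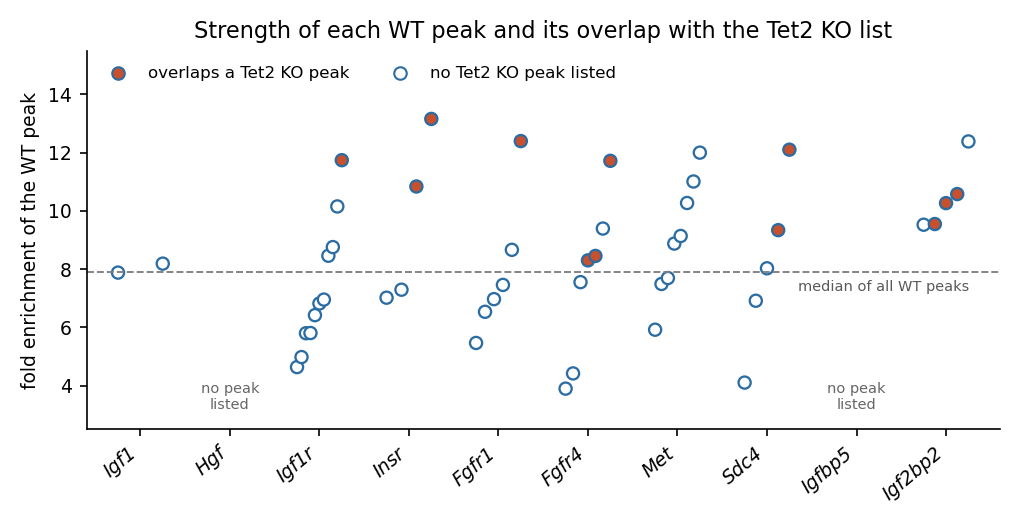
Fold enrichment of each WT peak (y axis) by gene (x axis), filled where it overlaps a Tet2 KO peak and open where it does not, with the median of all WT peaks (7.89) as a dashed line. At Igf1r, Insr, Fgfr1, Fgfr4 and Sdc4 the strongest WT peak overlapped a Tet2 KO peak, while at Met and Igf2bp2 the strongest, with folds of 12 and 12.4, did not. Of all WT peaks with a fold of 11 or more, 46.4% overlapped one.

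For the 12 pairs, the fragments at the summit were divided by the genome-wide background of the same library, 0.649 fragments in WT and 1.38 in Tet2 KO. WT summits stood 26.2 to 61.6 times over background and Tet2 KO summits 7.95 to 15.2 times. The ratio of Tet2 KO to WT was below 1 in 12 of 12 pairs, from 0.194 at the Insr peak 32.3 kb from the start to 0.357 at the Insr peak 58.4 kb from the start, with a median of 0.234. Over the 3719 pairs of the lists without mitochondrial DNA the median was 0.259 and 99.6% were below 1, so a lower summit in Tet2 KO was not particular to these genes. The Tet2 KO background was 2.13 times that of WT, which enters every ratio, and its part in the difference was not tested.

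**Figure D5:**
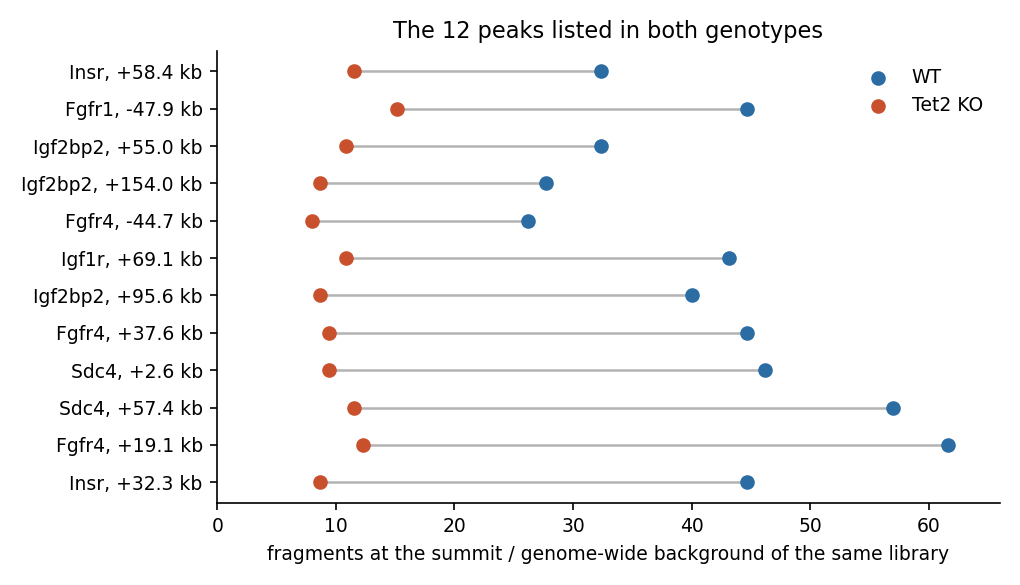
Fragments at the summit over the genome-wide background of the same library (x axis) for the 12 pairs of overlapping peaks, blue for WT and orange for Tet2 KO, named by gene and distance of the WT summit from the gene start. All Tet2 KO points lie between 7.95 and 15.2 and all WT points between 26.2 and 61.6.

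Each of the 6 motifs was searched on both strands within 100 bases of the summit. CAGCTG was found in 20 of the 48 WT peaks (41.7%, 28.9 to 55.7), beside 33.3% of all WT peaks, and in introns and intergenic sequence in 43.6% beside 39.8%. It was found in 4 of the 12 WT peaks with a Tet2 KO peak and in 16 of the 36 without, or in 5 and 17 when whole peaks were searched. In introns and intergenic sequence of the list it was found in 42.8% with a Tet2 KO peak and 39.4% without. When whole peaks were searched, these shares were 55.4% and 41.0%. Over all features of the list, WT peaks with a Tet2 KO peak were wider, with a median of 337 bp against 198 bp. The counts of 12 and 36 also cover all features, so they are not like for like with these shares. CAGCTG and CAGGTG were counted separately. CAGGTG was found in 18.8% (10.2 to 31.9) beside 10.6%, and in introns and intergenic sequence in 17.9% beside 11.3%. The AP-1 site TGANTCA was found in 37.5% (25.2 to 51.6) beside 34.2%. In introns and intergenic sequence that order was reversed, with the AP-1 site in 43.6% (29.3 to 59.0) beside 44.8%. CAGCTG or the AP-1 site was present in 29 of the 39 intron and intergenic WT peaks (74.4%, 58.9 to 85.4) beside 70.8%. The RUNX letters TGTGGT were found in 16.7% (8.70 to 29.6) beside 25.0%, and the TEAD letters GGAATG in 8.33% (3.29 to 19.6) beside 17.3%. In introns and intergenic sequence the RUNX letters were in 20.5% beside 31.1% and the TEAD letters in 10.3% beside 20.5%. The NFI palindrome was in 0 of the 48 (0 to 7.41%), beside 0.0427% of all WT peaks. None of the 6 motifs contains another, and the interval of each included its share in the list.

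By gene, CAGCTG was found in 4 of 11 WT peaks of Igf1r, 4 of 8 of Met, 3 of 7 of Fgfr4 and 3 of 4 of Insr. At the other genes it was in 2 of 6 at Fgfr1, 2 of 5 at Igf2bp2, 1 of 2 at Igf1 and 1 of 5 at Sdc4. The AP-1 site was found in 5 of 8 WT peaks of Met, 4 of 5 of Igf2bp2 and 1 of 11 of Igf1r. It was in 3 of 6 at Fgfr1, 2 of 7 at Fgfr4, 1 of 2 at Igf1, 1 of 4 at Insr and 1 of 5 at Sdc4. Of all WT peaks, 33.3% held CAGCTG and 34.2% the AP-1 site. A CpG lay within 10 bp of 10 of the 26 CAGCTG sites (38.5%), beside 32.6% of the 10864 such sites in all WT peaks. In introns and intergenic sequence it was 7 of 22 (31.8%) beside 28.0%. The 48 WT windows held a median of 4.5 CpG and 55.0% GC, beside 3 CpG and 53.2% GC. CpG content varied among promoters and among introns: the Fgfr1 promoter peaks 5.1 and 41.3 kb into the gene held 21 and 3 CpG, and the Insr intron peaks at 32.3 and 58.4 kb held 0 and 17.

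Other genes of the same pathways were counted in the same way. Of 56 genes, 51 had a WT peak in the window (91.1%, beside 74.3% of all protein-coding genes) and 23 a Tet2 KO peak (41.1% beside 31.4%). A promoter held a WT peak in 19 (33.9% beside 30.4%) and a Tet2 KO peak in 6 (10.7% beside 7.96%). Among 18 genes of IGF and insulin signalling, 17 had a WT peak and 8 a Tet2 KO peak, and Foxo3, a transcription factor that AKT keeps out of the nucleus, had the promoter peak (chr10:41997449-41997593, fold 5.58). Among 16 FGF genes the counts were 14 and 4. The promoter peaks of that list included those of Dusp6, an ERK phosphatase induced by FGF (fold 6.40), and of Frs3, an FGF receptor adaptor (fold 6.22). Another was that of the gene model named Fgfr2 (chr7:140315687-140315792, fold 5.14). That model spans 3009 kb in this annotation and takes in many other genes. Its peak may therefore lie at the start of another gene, and the counts above include it. Among 14 genes of HGF activation and MET signalling, 13 had a WT peak and 9 a Tet2 KO peak, with a promoter peak at Shc1, an adaptor of receptor tyrosine kinases (fold 4.13). Among 8 other heparan sulfate proteoglycans the counts were 7 and 2, with a promoter peak at Sdc2, a syndecan like Sdc4 (fold 6.71). Each of these 6 Tet2 KO promoter peaks overlapped a WT peak. The WT folds were 7.11 at Foxo3, 10.6 at Dusp6, 10.05 at Frs3, 9.89 at the Fgfr2 model, 11.4 at Shc1 and 11.7 at Sdc2.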

How the data were processed

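ATAC-seq peak lists of WT and Tet2 KO primary myoblasts were used, 1 per genotype. According to the study's methods, paired reads of 150 bp were cut to 36 bp and mapped to mm9 by Bowtie2. Alignments with a mapping quality under 30 and Picard duplicates were dropped, and MACS2 called peaks sample by sample at a q of 0.01, a -log10 q of 2. The Tet2 KO list nevertheless holds 55 peaks with a -log10 q under 2, down to 0.863, and the WT list 0. No peak near the 10 genes is among them. The fold enrichment the authors deposited is a ratio, summit to local background within a library, each plus 1. The authors also deposited the -log10 q and the -log10 p of each summit. The lists were given a genotype by their totals, which equal the totals of the study's feature classes for WT and Tet2 KO. How the listed peaks were chosen from those called is not given in the sources used here.

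Fragments at the summit and in the local background were solved from fold and -log10 p with the Poisson formula of MACS2. The error allowed was 0.001 up to a -log10 p of 10 and rose in proportion to -log10 p above that. Solving worked for 100% of peaks, with several solutions for 69 WT peaks and 1 Tet2 KO peak, and was tested on simulated data. The genome-wide background is the most frequent local one. The lowest listed summit had 6 fragments in WT and 7 in Tet2 KO, and total read numbers are not known. The peak centre set the feature, by GENCODE M1 on NCBIM37. All coordinates are mm9 and count from 1. Shares have Wilson 95% intervals. The 10 genes, the pathway and marker lists and the motifs were chosen with earlier results of these data known. By the naming rule, every Tet2 KO peak, every WT peak at a member's promoter or overlapping a Tet2 KO peak, and the WT peak of highest -log10 q in each window are given. Pathway genes are named where a promoter held a Tet2 KO peak, and Zfp346, Nsd1 and Slpi, as closest starts, were chosen with their values known. Alternatives were other windows, stricter -log10 q and fold limits, merging within 500 bp, other overlap rules, whole peaks for motifs and leaving out each window. Calculations ran in Python 3.11.15 with numpy 2.4.6 and pandas 2.3.3, and used scipy 1.17.1 for statistics and matplotlib 3.10.9 for plots. Other data of the study are not used here.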

Additional observations from a re-analysis of the deposited data

How the results depend on the processing

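With the gene and 10 kb upstream in place of 50 kb on either side, the windows held 31 WT and 6 Tet2 KO peaks, and the members' promoters alone held 4 WT and 0 Tet2 KO peaks, with an overlap of 0% and 0 genes with a Tet2 KO peak. With both lists limited to a -log10 q of 5 or more, 6 Tet2 KO peaks were left and the share of WT peaks with an overlap was 13.6%, beside 9.03% of the list. With a limit of 10, 29 WT peaks and 1 Tet2 KO peak were left, the share was 3.45% and 1 gene had a Tet2 KO peak. These limits remove peaks by construction. Under the other alternatives (100 kb on either side, the closest coding start, a fold of at least 5, merging within 500 bp and both stricter overlap rules) the share stayed between 18.8% and 27.9%, inside the interval of the main value. At a fold of at least 5 it was 23.3%, beside 10.6% of the list. At the genome-wide background, which was higher in Tet2 KO, that fold takes more fragments in Tet2 KO than in WT. For merging and the stricter overlap rules the share of the list was not computed. With each window left out in turn, an alternative chosen after seeing the data, the share at the remaining genes was 20.9% to 30%. Of 160 counts of a gene's peaks under an alternative, 118 were within 1.5 times the main count, 38 were lower and 4 higher. The 118 include counts that were 0 in both settings, and only the 100 kb windows could add a peak where there was none. In none did the Tet2 KO count of a gene exceed its WT count. With 96.8% of all Tet2 KO peaks overlapping a peak of the longer WT list, such an excess was unlikely under any setting. No paired analysis was possible because there is 1 peak list for each genotype, and no replicate could be left out. Sites with summits under 6 (WT) or 7 (Tet2 KO) fragments are outside the lists.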
